A study of Mus musculus with 3 samples.

Results

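Chemokines are small secreted proteins that attract leukocytes and other cells, and their receptors are the membrane proteins that read them. The set described here holds every row of the deposited table whose gene name follows the systematic names of chemokine ligands (Ccl, Cxcl, Cx3cl1, Xcl1), of signalling receptors (Ccr, Cxcr, Cx3cr1, Xcr1) or of atypical receptors (Ackr). These were 60 of 52550 genes, 38 ligands and 22 receptors. Chemokine proteins with other names, such as Pf4 and Ppbp, lie outside the name pattern and are given with the related genes near the end.

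RNA came from live, YFP-positive cells sorted out of the superior cervical ganglion, the sympathetic ganglion at the top of the neck, of 10-week-old male mice. The genotype, LepRCRE::Ai32 (the mice are also called LepReYFP), joins Cre recombinase expressed from the leptin receptor locus to a reporter allele that Cre switches on, so cells that used that locus only earlier in life can carry the reporter too. There was 1 group of 3 libraries labelled as biological replicates, with no second cell type, treatment or unsorted sample, with the numbers of cells and mice per library not given in the sources used here. Lepr itself, the gene that defines the group, was read in every library, at 363, 32.1 and 54.0 TPM in replicates 1, 2 and 3.

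Levels are in TPM, a transcript abundance scaled to gene length and to the total of the library. The values let whole reads be recovered, 8239045, 8038891 and 7721995 per library, and on a transcript of 1 kb 1 read was worth 0.391, 0.391 and 0.418 TPM. Summed markers of satellite glia and Schwann cells lay between 19358 and 23221 TPM, those of fibroblasts between 4471 and 6645 TPM, and those of perineurial cells, the barrier cells named in the series title, between 366 and 559 TPM. Endothelial, mural and neuronal markers were also read in every library. Among the perineurial markers, Cldn1 had 216, 246 and 220 TPM and Sfrp5 88.4, 107 and 78.3 TPM in replicates 1, 2 and 3. Itgb4, Moxd1, Ocln and Slc2a1 differed by over 20 times between libraries. Krt19, a perineurial marker, and Npy, a transmitter of sympathetic neurons, had no read. In pooled cells of this kind, fewer cells of a type and less RNA per cell cannot be told apart.

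Ligands fall into families named for the spacing of the first cysteines of the protein: adjacent in the CC family, separated by a single residue in the CXC family. Signalling receptors couple to inhibitory G proteins and move the cell toward the ligand, whereas atypical receptors bind ligand without that coupling and take it up or carry it across the cell. Ligands stay near their source because they bind heparan sulfate on cells and matrix. In ganglia and nerves they are known for drawing in monocytes and macrophages after injury.

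RefSeq promoters (GRCm38.p6) matched 45 of the 60 genes. The 250 bases before the RefSeq start are shown for Cxcl12, Ackr3 and Ackr1, the members above 1 TPM by the test described next that have an entry. They are also shown for Ccl3, which was high in a single library. The Ackr1 window lies almost wholly inside the gene interval given for Ackr1 below (173331886 to 173333750). Its motif and CpG counts therefore do not describe sequence before that interval. Capitals mark matches, on either strand, to a TATA box (TATAAA), a GC box (GGGCGG), or the motifs of NF-kB (GGG and TTTCC with 2 bases between them), STAT factors (TTC and GAA with 3 bases between them), STAT6 (the same with 4 bases) and AP-1 (TGANTCA).
Cxcl12, chr6:117168285-117168534, forward strand: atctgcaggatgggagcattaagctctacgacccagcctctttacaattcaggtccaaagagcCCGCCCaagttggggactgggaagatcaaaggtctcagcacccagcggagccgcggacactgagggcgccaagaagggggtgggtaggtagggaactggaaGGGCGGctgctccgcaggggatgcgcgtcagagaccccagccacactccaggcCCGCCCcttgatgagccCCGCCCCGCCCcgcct
Ackr3, chr1:90203730-90203979, forward strand: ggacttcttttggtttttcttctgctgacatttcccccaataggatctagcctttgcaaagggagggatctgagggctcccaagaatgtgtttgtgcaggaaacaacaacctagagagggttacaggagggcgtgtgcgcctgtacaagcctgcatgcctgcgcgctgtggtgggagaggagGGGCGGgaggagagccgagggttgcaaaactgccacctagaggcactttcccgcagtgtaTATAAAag
Ackr1, chr1:173333504-173333753, reverse strand: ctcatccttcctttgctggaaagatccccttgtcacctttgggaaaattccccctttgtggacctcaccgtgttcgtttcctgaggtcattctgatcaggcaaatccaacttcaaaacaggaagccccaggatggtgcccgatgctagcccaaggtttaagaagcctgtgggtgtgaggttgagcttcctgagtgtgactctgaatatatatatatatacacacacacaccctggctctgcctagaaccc
Ccl3, chr11:83649379-83649628, reverse strand: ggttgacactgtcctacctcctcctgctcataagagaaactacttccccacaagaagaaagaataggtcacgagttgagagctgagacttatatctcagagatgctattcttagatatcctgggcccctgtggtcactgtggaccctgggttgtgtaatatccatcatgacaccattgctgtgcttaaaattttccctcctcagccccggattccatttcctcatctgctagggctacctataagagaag
Cxcl12 held 5 GC boxes, the 2 nearest the start overlapping by 1 base, and Ackr3 held the letters of 1 GC box and 1 TATA box, while the windows of Ackr1 and Ccl3 held none of these letters. Over all 32851 promoters of the table, 32.7% held a GC box, 12.4% a TATA box, 1.41% the NF-kB, 7.02% the STAT, 5.85% the STAT6 and 6.75% the AP-1 letters. The Cxcl12 window had 14 CpG dinucleotides, Ackr3 had 7, Ackr1 had 3 and Ccl3 had 2, against a median of 6 over all promoters. Among the matched members the median number of CpG was 9.5 for the 4 with at least 1 TPM in every library. It was 12 for the 2 members at 1 TPM in 2 libraries, 4 for the 9 in 1 library and 3 for the 30 in none. The highest start was taken for genes with several. The first 4 include Ackr1, and Ccl11 had no entry. A match to these letters is a description of the window and not evidence that a factor binds there.

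Of the 60 genes, 38 had at least 1 read in some library, 22 reached 1 TPM in at least 1 library, and 5 reached it in all 3: Ccl11, Ackr1, Cxcl12, Ackr3 and Ccl27a. Over the 27399 genes of the table with a read, 61.6% reached 1 TPM in at least 1 library and 23.7% in all 3, and of the 38 members with a read the shares were 57.9% and 13.2%. The mean of log2(TPM + 1) was set against its value at 1 TPM with limma over those 27399 genes, with Benjamini-Hochberg adjustment. It placed 4 members above 1 TPM, Ccl11, Ackr1, Cxcl12 and Ackr3, and 5 below it, and 29 passed in neither direction. The background was 16.2% of genes above and 13.7% below, and 10.5% and 13.2% of the members with a read were so called. The median of log2(TPM + 1) was 0.60 over the members with a read and 0.89 over all genes with a read. Without replicate 1 or without replicate 2 limma called no gene of the table above 1 TPM, so the count of members went from 4 to 0, while 5 and 4 members respectively had an unadjusted p under 0.05. Leaving out replicate 3 gave 3 members, with Ackr1 and Ackr3 lost and Ccl27a gained.

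**Figure D1:**
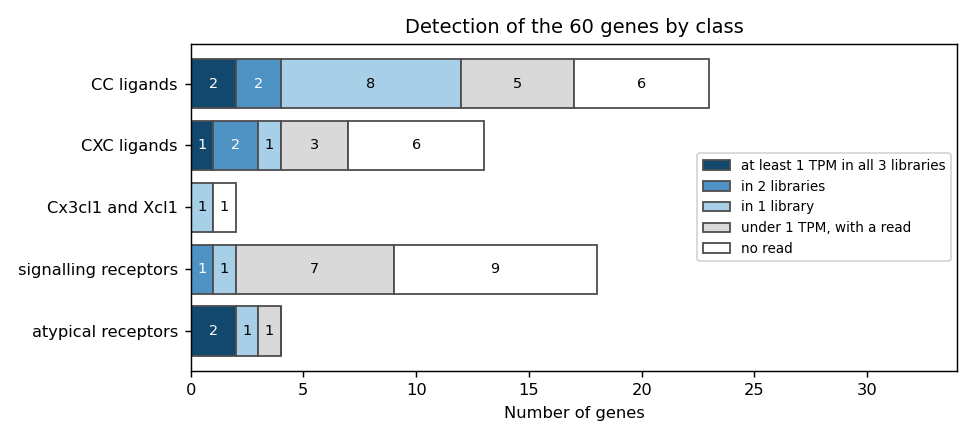
Number of genes in each class of chemokine ligand and receptor (x axis), split by how many of the 3 libraries reached 1 TPM. The 18 signalling receptors reached 1 TPM in 2 cases and in no case in every library, whereas 2 of the 4 atypical receptors reached it in every library.

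Ligands took 0.136%, 0.164% and 0.130% of TPM in replicates 1, 2 and 3 (mean 0.143% ± 0.0180, SD, n = 3), and receptors took 0.00656%, 0.00567% and 0.0172% (mean 0.00981% ± 0.00641, SD, n = 3). Receptors thus lay below ligands in 3 of 3 libraries. Ccl11 alone made up 71.3%, 90.2% and 51.4% of the ligand total.

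Ccl11 (ENSMUSG00000020676.2, chromosome 11, 82057823 to 82062955 of GRCm38, forward strand), the CC ligand eotaxin that attracts eosinophils through Ccr3, was the highest member in every library. It had 971, 1479.6 and 669 TPM from 2684, 4097 and 1733 reads in replicates 1, 2 and 3. The libraries differed by 2.21-fold at most, and the lowest still exceeded the highest value of any other member, which was 306 TPM. By level it ranked 70th, 43rd and 136th among all genes of the table. Its mean of 1040.0 ± 409.5 TPM (SD, n = 3) lay 8.95 ± 0.30 (SE) above 1 TPM in log2(TPM + 1) units (limma, adjusted p = 0.00341).

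Cxcl12 (ENSMUSG00000061353.11, chromosome 6, 117168535 to 117181367, forward strand) is the CXC ligand that holds leukocytes and progenitors in place through Cxcr4. It had 32.1, 48.1 and 27.6 TPM from 671, 1007 and 539 reads. Replicate 2 was highest and replicate 3 lowest, as for Ccl11, and the libraries stayed within 1.75-fold of each other. The mean of 35.9 ± 10.8 TPM (SD, n = 3) lay 4.17 ± 0.24 (SE) above 1 TPM in log2(TPM + 1) units (limma, adjusted p = 0.00586).

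Ackr3 (ENSMUSG00000044337.5, chromosome 1, 90203980 to 90216751, forward strand), the atypical receptor that clears Cxcl12 and Cxcl11, had 15.8, 27.1 and 26.1 TPM from 135, 232 and 209 reads. Its libraries lay within 1.71-fold, the narrowest range of the 5 members with at least 1 TPM in every library. The mean of 23.0 ± 6.25 TPM (SD, n = 3) lay above 1 TPM by 3.55 ± 0.25 log2 units (SE; limma, adjusted p = 0.00790). Cxcl12 was above Ackr3 in 3 of 3 libraries, and their ranges did not overlap, but by a narrow margin: 27.6 TPM was the lowest value of the first and 27.1 TPM the highest of the second. That order was not tested.

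Ackr1 (ENSMUSG00000037872.5, chromosome 1, 173331886 to 173333750, reverse strand), the atypical receptor by which venules and red cells bind CC and CXC ligands, had 46.6, 24.3 and 117 TPM from 167, 87 and 394 reads. Replicate 3 was highest, 4.83-fold above replicate 2. The mean of 62.7 ± 48.5 TPM (SD, n = 3) lay above 1 TPM by 4.71 ± 0.53 log2 units (SE; limma, adjusted p = 0.0222), and its range overlapped those of Cxcl12 and Ackr3. The 8 endothelial markers summed to 329, 407 and 299 TPM, with Emcn at 237, 135 and 146 TPM, Kdr at 4.95, 10.7 and 45.6 TPM and Vwf at 10.3, 28.5 and 0.709 TPM. The part of endothelial cells in the Ackr1 level was not tested. Exons of Ackr1 share 361 of 1405 bases with Cadm3 on the same strand, and Cadm3 had 0, 112 and 5 reads.

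Ccl27a (ENSMUSG00000073888.12, chromosome 4, 41769467 to 41774247, reverse strand), a CC ligand of epithelia that acts on Ccr10, reached 1 TPM in every library with 14.5, 16.5 and 2.86 TPM from 88, 100 and 16 reads. Replicate 3 stood apart, 5.77-fold below replicate 2. It did not pass the test (limma, difference in log2(TPM + 1) of 2.34 ± 0.58, SE, adjusted p = 0.0609), but passed with a pseudocount of 0.1 TPM. Its near-identical copy Ccl27b, elsewhere on chromosome 4, had no read, and reads of such copies may not be placed rightly.

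**Figure D2:**
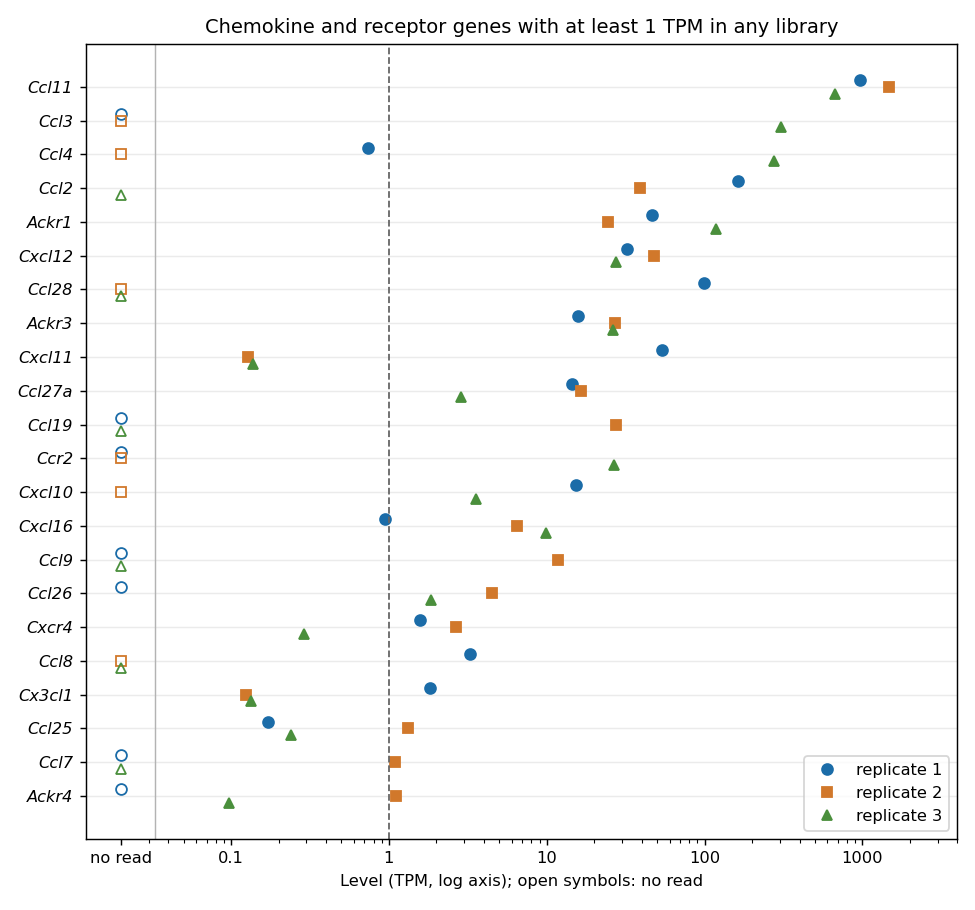
Level in TPM (x axis, log scale) of the 22 chemokine and receptor genes that reached 1 TPM in any library, 1 symbol per library, with open symbols at the left for libraries without a read. The symbols of Ccl11, Ackr1, Cxcl12, Ackr3 and Ccl27a all lie right of the dashed line at 1 TPM, whereas Ccl3, Ccl28, Ccl19, Ccr2 and Ccl9 have a read in 1 library only.

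The other 17 members that reached 1 TPM did so in 1 library (12 genes) or in 2 (5 genes). Among the 14 members with at least 10 TPM in some library, 7 stayed under 1 TPM in both others, which is 50%, against 18.5% of the 10413 genes of the table with at least 10 TPM in some library. Each library had its own: Ccl28 and Cxcl11 in replicate 1, Ccl19 and Ccl9 in replicate 2, and Ccl3, Ccl4 and Ccr2 in replicate 3. Over all genes the corresponding counts were 637, 821 and 467. The 14 members whose mean reached 5 TPM had a median SD of 2.34 on the log2(TPM + 1) scale, and all such genes (10128) had 1.72.

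Ccl2, the main attractant of monocytes through Ccr2, was graded: 162 TPM in replicate 1, 39.2 TPM in replicate 2 and no read in replicate 3. Those levels came from 472 and 114 reads, and replicate 1 was at least 147-fold above the level that 3 reads would have in replicate 3. Its mean did not pass the test (limma, adjusted p = 0.227), but passed with a mean-variance trend in limma, the fifth member above 1 TPM in that setting. Ccl11, its neighbour on chromosome 11 (starts at -22.3 kb and 0 kb), was highest in replicate 2.

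Ccl3 and Ccl4, sister CC ligands released by activated macrophages and lymphocytes, were high in replicate 3 alone. Ccl3 had 561 reads there, 306 TPM, and no read in the other 2 libraries, whose level was lower by at least 199.7-fold. Ccl4 had 435 reads, 276 TPM, with 1 read in replicate 1 and none in replicate 2. Ccr2, the monocyte receptor of Ccl2, had 429 reads and 26.5 TPM in replicate 3 and none elsewhere. In none of these 3 genes did the test pass (limma, adjusted p from 0.481 to 0.722), since 1 library of 3 carried the whole signal.

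Leukocyte genes differed between the libraries, not all in the order of those 3 members. Ptprc, carried by all leukocytes, had 0.0695, 1.90 and 11.1 TPM, and Tyrobp, an adaptor of myeloid and NK cells, had 0, 33 and 120 reads. Rgs1, which dampens chemokine receptors in leukocytes, had 0, 3 and 692 reads, and Siglecf, a lectin of eosinophils and some macrophages, had 543 reads in replicate 3 and none elsewhere. The other 7 markers of mast cells, eosinophils and neutrophils had at most 2 reads in a library. The 10 macrophage markers summed to 2.46, 169.9 and 92.1 TPM, with 0, 4 and 3 of them at 1 TPM or more. Fcer1g, a signalling subunit of Fc receptors, had 1, 194 and 0 reads and Cd68, a lysosomal protein, 0, 196 and 0, so both were high in replicate 2 and empty in replicate 3. Lyz2 had 1, 7 and 43 reads. The other 6 had at most 7 reads in a library: Csf1r 3, 5 and 7, Mrc1 3, 0 and 7, C1qb 1, 0 and 3, C1qa and Adgre1 1, 0 and 1 each, and Aif1 none. Of 8 lymphocyte markers, 5 had no read in replicate 3 and Trac had 5 reads there. The part of a few leukocytes in the levels of Ccl3, Ccl4 and Ccr2 was not tested.

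**Figure D3:**
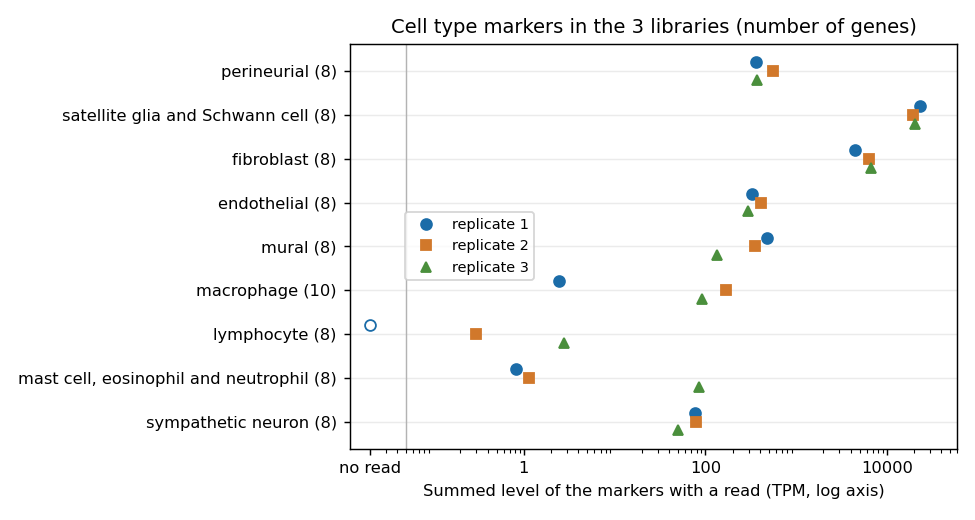
Summed level in TPM (x axis, log scale) of fixed marker genes of 9 cell types, 1 symbol per library, counting only markers with a read. Macrophage markers summed to 2.46 TPM in replicate 1 and to 169.9 and 92.1 TPM in replicates 2 and 3, and the sum of mast cell, eosinophil and neutrophil markers in replicate 3, 84.3 TPM, came nearly all from Siglecf at 81.4 TPM.

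Ccl28, a mucosal ligand of Ccr10, had 1225 reads and 99.0 TPM in replicate 1 and no read in the others, a gap of at least 383-fold. Cxcl11, an interferon-induced ligand of Cxcr3 and Ackr3 that GENCODE M21 types as a polymorphic pseudogene, had 522 reads and 53.9 TPM in replicate 1 and 1 read in each other library. Exons of Cxcl11 share 1582 of 3794 bases with Gm2673, a processed pseudogene on the opposite strand, which had 5, 3 and 0 reads. Cxcl10, also interferon-induced and next to Cxcl11 in the genome, had 15.3 TPM in replicate 1, no read in replicate 2 and 3.57 TPM in replicate 3. It shares 133 of 2252 exon bases with Art3 on the opposite strand, which was abundant at 596, 629 and 698 TPM. Strand use in the counting was not given in the sources used here, so reads of the shared bases cannot be told apart. Cxcl9, the remaining ligand of that group, was without reads, a floor of 3 reads lying at 0.389, 0.389 and 0.416 TPM.

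Ccl19, which draws dendritic and T cells through Ccr7, had 61 reads and 27.6 TPM in replicate 2 only. A near-identical copy, Ccl19-ps1, had 47 reads in replicate 3 only, so the split of reads between them is uncertain. Ccl9, a myeloid attractant, had 92 reads and 11.8 TPM in replicate 2 only. Cxcl16, a membrane-bound ligand of Cxcr6, was read in every library at 0.939, 6.50 and 9.85 TPM from 7, 50 and 71 reads, a 10.5-fold range (limma, adjusted p = 0.167).

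The remaining ligands that reached 1 TPM rested on few reads. Ccl26 had 0, 3 and 1 reads, Ccl8 4, 0 and 0, and Ccl7 0, 2 and 0. Cx3cl1, the membrane-bound fractalkine of neurons and endothelium, had 18, 1 and 1 reads, with 1.82 TPM in replicate 1. Ccl25 had 3, 25 and 4 reads, with 1.33 TPM in replicate 2. Another 8 ligands had between 1 and 4 reads in some library and stayed under 1 TPM: Ccl1, Ccl5, Ccl6, Ccl17, Ccl22, Cxcl1, Cxcl13 and Cxcl15. No read was found for 13 ligands, among them the neutrophil attractants Cxcl2, Cxcl3 and Cxcl5, Ccl20, Ccl24 and Cxcl14, and 3 reads of these 13 would be from 0.335 to 3.12 TPM. Among the 13 are Ccl21a and Ccl21b, which have near-identical copies.

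Signalling receptors were low. Of 18, Ccr2 and Cxcr4 reached 1 TPM in some library, 7 more had 1 to 4 reads in some library, and 9 had no read in any. Cxcr4, the signalling receptor of Cxcl12, had 1.57, 2.65 and 0.289 TPM from 7, 12 and 1 reads (limma, adjusted p = 0.702). Ccr1 had 0, 2 and 1 reads, Cx3cr1, which marks resident macrophages, 4, 2 and 0, and Cxcr2 3, 0 and 2. The 9 without a read were Ccr3, Ccr4, Ccr7, Ccr8, Ccr9, Ccr10, Cxcr1, Cxcr6 and Xcr1, for which 3 reads would be from 0.114 to 1.07 TPM. Reads carried no molecular identifiers as far as the labels say, and these floors cover counting error only.

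Of the 4 atypical receptors, Ackr1 and Ackr3 are described above. Ackr4, the scavenger of Ccl19, Ccl21 and Ccl25, had 0, 15 and 1 reads and 1.11 TPM in replicate 2. Ackr2, a scavenger of inflammatory CC ligands, had 1 read in each library. Ackr2 was among the 5 members called below 1 TPM, Ccr6, Cxcr5 and Cxcl15 among the others, each with 3 reads or fewer in all (limma, adjusted p from 0.0486 to 0.0491). Those 5 calls were 0 without replicate 1, without replicate 2, without mitochondrially encoded genes, at a level of 0.5 TPM or among genes whose mean reached 0.5 TPM (limma; 16, 14, 8, 1 and 0 members at an unadjusted p under 0.05), and no gene of the table was called below in those settings.

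A list of 37 ligand and receptor pairs, covering 32 ligands and 18 receptors, was read for both ends. Ackr1, Ackr2, Ackr4 and Cxcr1 were not among those receptors, so the pair counts leave out their ligands' binding to them. Within the list, Cxcl12 and Ackr3 were the single pair with both ends at 1 TPM or more in every library. In 3 further pairs the ligand alone did so, and in 1 the receptor alone. Both ends reached 1 TPM within the same library in 3 pairs, which all include Cxcl12 or Cxcl11: Cxcl12 with Ackr3 in 3 of 3 libraries, Cxcl12 with Cxcr4 in replicates 1 and 2, and Cxcl11 with Ackr3 in replicate 1.

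For Ccl11 the listed receptor, Ccr3, had no read in any library. There 3 reads would be 0.359, 0.358 and 0.383 TPM, against a ligand of at least 669 TPM. Ackr1, the atypical receptor that binds CC ligands, was outside the list and had 46.6, 24.3 and 117 TPM in replicates 1, 2 and 3. Ccl2 and Ccr2 were read in different libraries, the ligand in replicates 1 and 2 and the receptor in replicate 3. For Ccl3 in replicate 3, its receptor Ccr1 had 1 read. Ccl28 and Ccl27a share Ccr10, and Ccl19 signals through Ccr7, and neither receptor had a read.

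**Figure D4:**
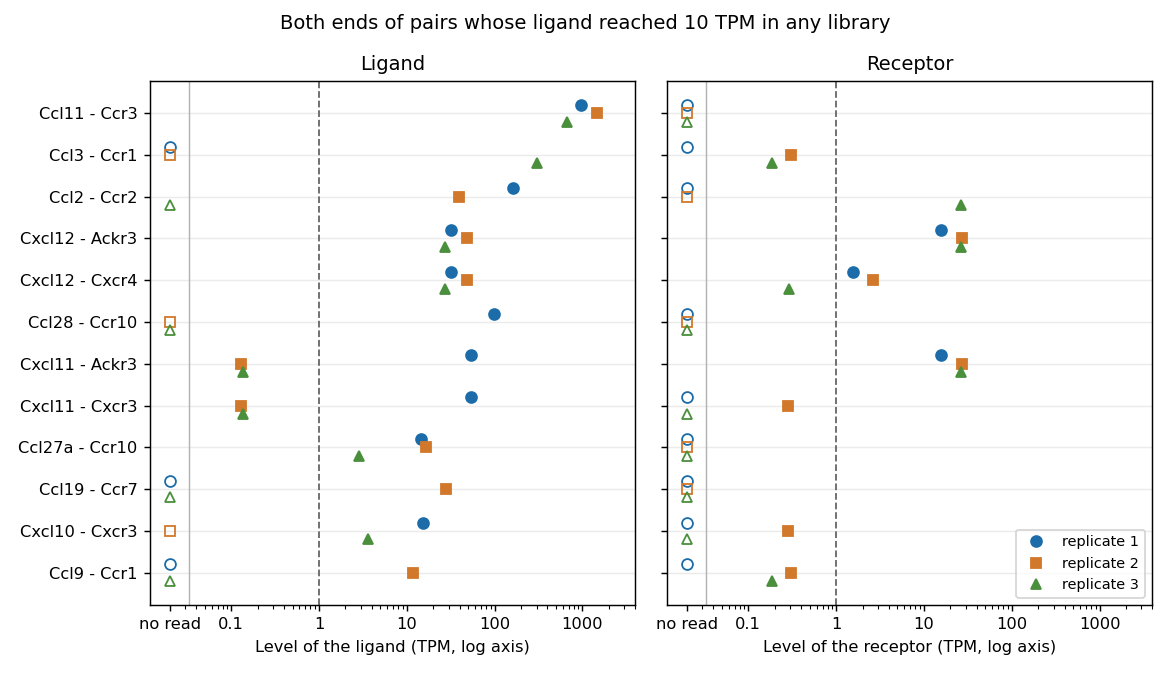
Level in TPM (log axes) of the ligand (left) and the receptor (right) for pairs whose ligand reached 10 TPM in some library, 1 symbol per library, open symbols for no read. Ackr3 is the receptor with all 3 symbols right of the dashed line at 1 TPM, and Ccr3, Ccr7 and Ccr10 have open symbols only.

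Many of these genes lie in tandem groups, and in some groups the levels of neighbours were far apart. In the group of 6 on chromosome 11 (82035571 to 82305690), Ccl11 was the one above 1 TPM in every library. Ccl7, with its start at -12.1 kb from that of Ccl11, had 0, 2 and 0 reads, and Ccl12, at 44.0 kb, had none. In the second group on that chromosome (83525778 to 83664683), Ccl3 and Ccl4 were both high in replicate 3, while Ccl9 was read in replicate 2 only, Ccl5 had 2 reads and Ccl6 had 3. The group of 5 CXC ligands on chromosome 5 (90759360 to 90905938), Cxcl5, Cxcl3, Cxcl15, Cxcl1 and Cxcl2, held no gene at 1 TPM, and 3 of them had no read. Of the 7 receptor genes clustered on chromosome 9 (123678439 to 124147699), Ccr2 alone reached 1 TPM and 4 had no read.

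**Figure D5:**
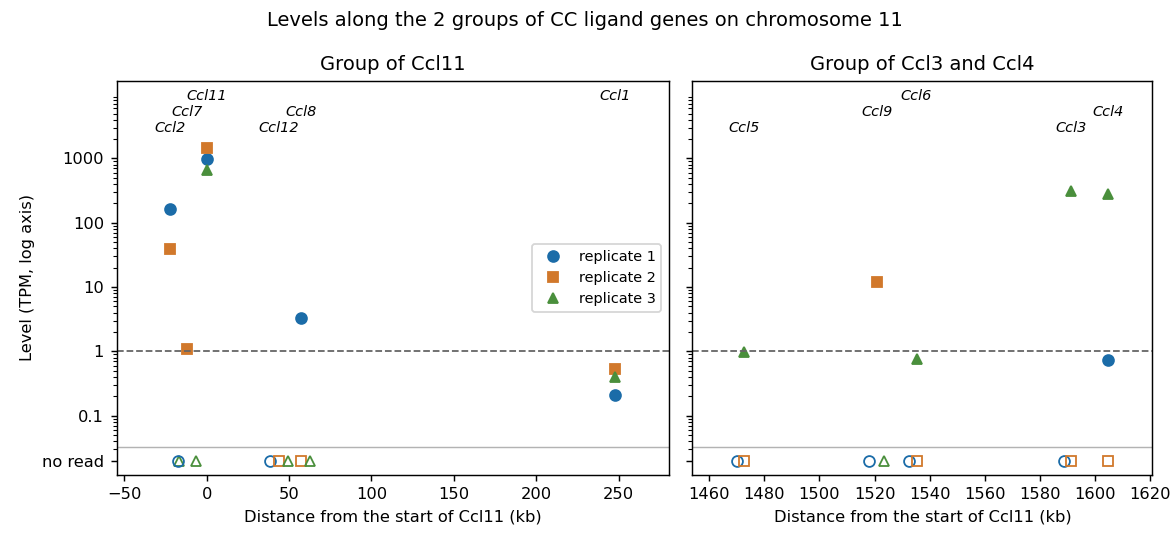
Level in TPM (y axis, log scale) of the CC ligand genes in 2 groups on chromosome 11, 1 symbol per library. The x axis gives the distance of the gene start from that of Ccl11 in kb, the start of a reverse-strand gene being its upper coordinate. Open symbols stand for no read and are set slightly apart. Ccl11 is at 669 TPM or more in all 3 libraries while Ccl7 and Ccl12 beside it have 2 reads or none, and Ccl3 and Ccl4 are high in replicate 3.

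Among 15 chemokine-related genes outside the name pattern, 5 lay above 1 TPM, 1 below (Gpr35, with 1 read) and 7 neither, and Pf4 and Ppbp, the platelet chemokines, had no read (background 16.2% above and 13.7% below; median of log2(TPM + 1) over those with a read 3.81). Rarres2, the attractant chemerin, led with 204, 503 and 202 TPM. Its receptor Cmklr1 had 3, 4 and 425 reads, 52.1 TPM in replicate 3. Mif, a cytokine that also binds Cxcr4, had 127, 228 and 279 TPM, and Cd74, its other receptor and the class II invariant chain, 52.5, 230.1 and 565 TPM. Cklf, named for its chemokine-like activity, and its relative Cmtm7 had means of 31.2 and 14.2 TPM. These 5 were the ones above (limma, adjusted p from 0.00423 to 0.0424). Libraries of Ccrl2, Cmklr1, Cmtm4, Cmtm6 and Pitpnm3 differed by over 20 times.

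Genes that shed, trim or clear chemokines gave 4 of 11 above, 0 below (limma; 0 at an unadjusted p under 0.05) and 4 neither, with no read for Ctsg, Elane and Mmp9 (median 5.31). Adam10 and Adam17, the proteases that release Cx3cl1 and Cxcl16 from the membrane, had 225, 260.2 and 394 TPM and 94.8, 106 and 50.2 TPM. Cd9, a tetraspanin that associates with them, had 2992 ± 371 TPM and Hmgb1, a nuclear protein that binds Cxcl12 once released, 356 ± 71.1 TPM (SD, n = 3; limma, adjusted p from 0.00336 to 0.00564 for the 4). Dpp4, which trims and inactivates Cxcl12 and Ccl11, had 6.40, 0.819 and 0.546 TPM. Mmp2 had 0.610, 72.0 and 61.4 TPM, and it, Mmp14 and Ide differed by over 20 times between libraries.

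Of 19 genes of heparan sulfate and matrix carriers, 9 lay above, 1 below (Gpc1) and 9 neither (median 4.16). Dcn, a fibroblast proteoglycan, had 3791 ± 634 TPM, and the syndecans Sdc4 and Sdc2 had 1422 ± 148 and 164 ± 60.5 TPM (SD, n = 3). Bgn and Gpc6 had 55.2 ± 40.9 and 31.0 ± 22.4 TPM, Hs2st1, which sulfates the chain, had 62.4, 26.5 and 25.5 TPM, and Agrn, Ext2 and Ext1 were the other members above (limma, adjusted p from 0.00336 to 0.0486 for the 9). Libraries of Glce, Gpc3, Gpc4, Hspg2, Ndst1 and Sdc3 differed by over 20 times.

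Of 36 genes that couple receptors to the cell, 14 lay above 1 TPM, 4 below and 18 neither (median 1.80). The highest of those above were in wide use across cell types: the G protein subunits Gnb1, Gnai3 and Gnai1 had 483 ± 48.8, 231 ± 142 and 218 ± 50.6 TPM, the GTPase Cdc42, which sets cell polarity, had 494 ± 61.1, and the kinases Ptk2 and Mapk3 had 162 ± 22.2 and 110.2 ± 58.7 TPM (SD, n = 3; limma, adjusted p from 0.00336 to 0.0486 for the 14). That description does not cover Prex1, also among the 14, which had 5.23, 9.75 and 22.4 TPM in replicates 1, 2 and 3. The 4 below, Plcb2, Pik3r5, Pik3cg and Rac2, are typical of leukocytes and had at most 5 reads in a library. Other genes typical of leukocytes passed in neither direction and were uneven: the kinases Lyn and Fgr had 3, 146 and 39 and 0, 90 and 0 reads, Was, an actin regulator, had 0, 3 and 28, Rgs1 is given above, and Dock2, which leukocytes need for migration, had 2, 7 and 8. Libraries of Akt1, Arrb1, Arrb2, Fgr, Grk3, Grk5, Grk6, Lyn, Rgs1 and Was differed by over 20 times.

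Of 23 genes of the signals that are known to induce chemokines, 8 lay above, 0 below (0 at an unadjusted p under 0.05) and 15 neither (median 3.20). Fos, part of AP-1, had 389 ± 146 TPM, Nfkbia, the NF-kB inhibitor, 258 ± 110.1, and Ifngr1, the interferon gamma receptor, 210.4 ± 74.4, followed by Il1rap and Ifngr2 with 46.4 ± 14.1 and 43.6 ± 30.9 TPM (SD, n = 3; limma, adjusted p from 0.00382 to 0.0490 for the 8). Nfkb1 and Tlr4 were also above. For the route by which interleukins 4 and 13 are known to induce Ccl11, Stat6 had 2.51, 13.7 and 11.6 TPM, Il13ra1 0.237, 8.76 and 18.5 TPM, and Il4ra 0, 0 and 14 reads, and the part of that route in the Ccl11 level was not tested. Irf1, an interferon-induced transcription factor, had 1.40, 11.9 and 153 TPM, and its part in the levels of Cxcl10 and Cxcl11 was not tested. Libraries of Il13ra1, Il1r1, Il4ra, Irf1, Myd88, Nfkb2, Nfkbiz, Rela, Relb and Tnfrsf1b differed by over 20 times. Without replicate 3 the genes above over these 5 lists went from 40 to 21, as those of the whole table went from 4431 to 2436, and without replicate 1 or 2 both counts were 0.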

How the data were processed

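Full-length cDNA libraries (Smart-Seq2) were made from sorted cells, per the labels' protocols. The authors deposited log2 TPM per gene, and STAR and featureCounts with mm10 (GRCm38) are named in the submitters' processing notes. Versions, annotation and strand setting were not given in the sources used here. In linear scale each deposited column sums to 1000000 TPM, mitochondrially encoded genes taking 19.9% to 21.1%. The values showed 0.25 read added to each gene, and with GENCODE M21 exon lengths all 49035 genes with a versioned ID in M21 came out as whole reads within 0.001 read; lengths of 3134 others were solved from the values. Because of that addition, reads are printed where a library has none, and means, SDs and tests use the deposited values.

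Genes with a read in any library (27399) were tested with limma 3.58.1 (R 4.3.3): mean log2(TPM + 1) against 1 TPM, two-sided, Benjamini-Hochberg, threshold 0.05. The added 1 TPM shrinks differences of low genes. The test was tried on simulated data with each gene's own spread. It called 0 of 50 genes set 2 log2 units above 1 TPM, 22 of 50 at 4, 23 of 50 at 6 and 31 of 50 at 8. Of 27199 genes set at 1 TPM it called 2. Few genes of that trial were set away from 1 TPM, so the adjustment was stricter there than in the data. In the data 4431 genes were called above and 3744 below. The counts of the trial therefore do not give the share of genes at those levels that passes in the data, which was not tested. A gene that passed in neither direction may still lie well above 1 TPM. Alternatives changed the level, pseudocount, filter, variance trend, scaling and replicates. A floor is 3 reads. Promoters came from RefSeq. Some genes counted in the totals are not reported here by name. Python 3.11.15, numpy 2.4.6, pandas 2.3.3 and matplotlib 3.10.9 were used. Every member with at least 1 TPM in any library was named; of other lists, up to 6 of the highest genes above 1 TPM and those whose libraries differ over 20 times. Members, lists, pairs and tests were chosen with earlier results of these data known. Nothing says whether the replicates came from separate animals, so p-values measure only the spread between these samples.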

Additional observations from a re-analysis of the deposited data

How the results depend on the processing

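No paired analysis was possible because there was 1 group. The count of members above 1 TPM was 4 or 5 under each alternative level, pseudocount, filter, variance trend and rescaling, and 0 to 3 with 1 replicate left out; genes of the 5 related lists above 1 TPM numbered 40, and 0 to 21 with 1 replicate left out. The count below, 5 of 38 beside 3744 of 27399 genes in the whole table, moved with that of the table: it was 20 at 5 TPM (13982 of all genes), 32 with no filter (29850 of 52550) and 14 with a mean-variance trend (9650). It was 0, as for the whole table, at 0.5 TPM (1 unadjusted), among genes whose mean reached 0.5 TPM (0 unadjusted) and without mitochondrially encoded genes (8 unadjusted), and 0 to 7 with 1 replicate left out (limma). Without mitochondrially encoded genes the ligand share was 0.1803% in place of 0.143%, since the total is smaller. Without replicate 3, Ccl3 and Ccr2 turned to -0.83 and -0.98 in log2(TPM + 1) against 1 TPM, since no read is left (leave-one-out ranges -0.83 to 3.22 and -0.98 to 1.40), and the pairs with both ends at 1 TPM in every library were 2, where other leave-one-out values were 1. The share of ligands was 0.133% to 0.150% and that of receptors 0.00612% to 0.0119% with 1 replicate left out, and the members with at least 1 TPM in every library numbered 6 to 7. Sampling depth limits what is said of genes without a read to the floors given.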
